A study of Mus musculus with 6 samples.

Results

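The 10 genes described here act together to put peptides on the cell surface by the MHC class I route, and their RNA was read here in colon tumors of mice with and without the M3 muscarinic receptor. They were *H2-K1*, *H2-D1*, *H2-T23* and *H2-Q7*, which encode class I heavy chains, *B2m*, the light chain, *Tap1* and *Tap2*, the peptide transporter, *Tapbp*, which encodes tapasin, and the chaperones *Calr* and *Pdia3*. The 10 genes were chosen by name for their role in the pathway, and every probe annotated with one of these symbols was taken. This gave 10 of 19057 named genes and 22 of the 45281 probes on the array. Of the 22, 19 were bright enough to be tested. The other 3, a probe each of *H2-D1*, *B2m* and *Calr*, read under 2 on all 6 arrays, which was taken as not above background.

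Tumors of 3 *Chrm3*-/- mice and 3 wild-type (WT) mice were measured on the Illumina MouseWG-6 v2.2 BeadChip, 1 array per mouse. All mice were males on a mixed background, 50% 129S6/SvEvTac and 50% CF1, had received the colon carcinogen azoxymethane (AOM), and are labelled as 7 months of age. The knockout was carried in the germline, so tumor, stroma and immune cells alike lacked the receptor, and WT males matched for age and background were the controls. *Chrm3*, the targeted gene, was read by 1 probe at 25.1, 32.1 and 21.9 in *Chrm3*-/- tumors, against 9.06, 1.80 and 1.94 in WT tumors (log2 fold change 0.49, adjusted p = 0.365, limma), but where the probe lies relative to the deleted part is not stated in the sources used, so it is no check of the labels.

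In the class I pathway, peptides made by the proteasome are pumped by the TAP transporter into the endoplasmic reticulum, where tapasin, calreticulin and the disulfide isomerase ERp57 hold empty class I molecules until a peptide binds. A heavy chain with its peptide and beta-2 microglobulin then travels to the surface, where CD8 T cells and natural killer cells inspect it. Interferon-gamma is the best known inducer of the pathway, and heavy chain and *B2m* promoters share a regulatory module at which RFX, CREB and NF-Y factors recruit the coactivator NLRC5.

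Letters of that module were searched for in the RefSeq promoter windows (build GRCm38.p6), each running from 250 bases before to 50 bases after an annotated start. A window was at hand for 9 of the 10 genes, all but *Tap2*. Those of the 4 heavy chains and *B2m* are shown because they hold the letters that these genes share or lack. They lie at chr17:34000298-34000597 on the minus strand for *H2-K1* (the first of its windows), chr17:35262844-35263143 on the plus strand for *H2-D1*, chr17:35438905-35439204 on the plus strand for *H2-Q7*, chr2:122147437-122147736 on the plus strand for *B2m* and chr17:36032652-36032951 on the minus strand for *H2-T23*. Each is written 5′ to 3′ on the strand of the gene. Capitals mark TGACG (the core of the X2 box, read by CREB factors) followed by ATTGG (the core of the Y box, read by NF-Y), GGGATTCCC (letters of an NF-kB element) and AANNGAAA or its reverse complement (an element of interferon regulatory factors).
H2-K1: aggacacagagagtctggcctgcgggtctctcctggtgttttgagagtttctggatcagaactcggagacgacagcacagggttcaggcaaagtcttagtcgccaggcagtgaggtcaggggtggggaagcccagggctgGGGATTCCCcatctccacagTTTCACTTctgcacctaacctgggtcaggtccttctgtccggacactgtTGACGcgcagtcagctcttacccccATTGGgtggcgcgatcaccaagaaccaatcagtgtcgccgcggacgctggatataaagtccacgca
H2-D1: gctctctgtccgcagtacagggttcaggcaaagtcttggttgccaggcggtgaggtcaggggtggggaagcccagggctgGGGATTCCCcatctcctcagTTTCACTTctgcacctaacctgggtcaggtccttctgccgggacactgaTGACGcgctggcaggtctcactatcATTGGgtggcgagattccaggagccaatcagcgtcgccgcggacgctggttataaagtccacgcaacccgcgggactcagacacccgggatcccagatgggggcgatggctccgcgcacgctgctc
H2-Q7: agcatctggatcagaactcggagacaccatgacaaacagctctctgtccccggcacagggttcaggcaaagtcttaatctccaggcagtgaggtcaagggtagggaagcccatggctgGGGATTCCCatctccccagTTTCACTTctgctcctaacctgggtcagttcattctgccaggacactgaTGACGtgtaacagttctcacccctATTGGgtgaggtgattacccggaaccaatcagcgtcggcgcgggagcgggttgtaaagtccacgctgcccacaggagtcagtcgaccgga
B2m: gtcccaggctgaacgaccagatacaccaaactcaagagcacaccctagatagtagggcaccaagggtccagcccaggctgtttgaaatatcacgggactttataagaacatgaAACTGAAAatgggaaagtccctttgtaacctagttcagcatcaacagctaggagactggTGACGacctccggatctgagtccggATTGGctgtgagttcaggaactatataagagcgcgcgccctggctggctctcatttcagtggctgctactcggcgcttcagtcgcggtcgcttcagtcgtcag
H2-T23: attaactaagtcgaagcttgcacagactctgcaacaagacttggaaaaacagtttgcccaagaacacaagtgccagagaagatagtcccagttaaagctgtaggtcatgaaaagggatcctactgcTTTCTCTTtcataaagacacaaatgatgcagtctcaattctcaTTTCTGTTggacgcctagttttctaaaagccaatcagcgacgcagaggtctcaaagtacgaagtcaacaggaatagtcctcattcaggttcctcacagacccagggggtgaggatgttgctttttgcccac

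The pair TGACG and ATTGG, with 24 to 26 bases between their starts, was found in *H2-K1*, *H2-D1*, *H2-Q7* and *B2m*, 4 of the 9 genes with a window, and in 0.201% of the 32851 promoter windows of the mouse. The starts lay 24 bases apart in *H2-Q7* and 25 bases apart in the other 3. The spacing was set after these sequences had been seen, so the count is a description. GGGATTCCC was present in the 3 heavy chains *H2-K1*, *H2-D1* and *H2-Q7* and in 0.353% of all windows, and AANNGAAA in 6 of the 9 genes and in 23.9% of all windows. The windows of these 3 heavy chains also share long stretches of other letters, so their matches cannot be counted as separate. Both strands were searched for each motif, and ATTGG on the gene's strand is also CCAAT on the other, a motif found in all 9 genes and in 37.4% of all windows. The windows of *H2-T23* and *Calr* held AANNGAAA alone of the first 3 motifs, and those of *Tap1*, *Tapbp* and *Pdia3* held none of the 3 in these letters. A match of letters is neither a bound site nor a cause of any value below.

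No heavy chain differed between the genotypes beyond the spread among tumors, which was wide. *H2-K1* (chromosome 17, 33996012 to 34000619), a classical heavy chain that presents to CD8 T cells, read 4468, 608 and 1392 in *Chrm3*-/- tumors and 3306, 839 and 1203 in WT tumors at its brightest probe, in units of normalized intensity and in the order of replicates 1, 2 and 3. Replicate 1 was the highest tumor in each genotype, and the genotypes overlapped. The log2 fold change, *Chrm3*-/- over WT and on the scale of log2(value + 50), was 0.07 (standard error, SE, of 0.77, 95% interval -1.75 to 1.88, adjusted p = 0.996 from limma). The spread within *Chrm3*-/- tumors, 7.35-fold from the lowest to the highest, was thus far above the difference between the genotypes. At the dimmer *H2-K1* probes the differences were 0.22 (SE 0.31) and -0.09 (SE 0.53).

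*H2-D1* (chromosome 17, 35263094 to 35267497), the other classical heavy chain measured, read 8317, 2574 and 3824 in *Chrm3*-/- tumors and 8684, 4272 and 4195 in WT tumors. Again replicate 1 stood highest in both genotypes, and the 2 other *Chrm3*-/- tumors lay below the 2 other WT tumors. Its log2 fold change was -0.30 (SE 0.47, adjusted p = 0.991), while the other tested probes gave -0.45 (SE 0.55) and -0.29 (SE 0.62). All 3 tested *H2-D1* probes thus lay below WT, by less than their standard error.

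*H2-T23* (chromosome 17, 36029977 to 36032701) encodes Qa-1, a nonclassical chain that shows leader peptides of other class I molecules to CD94/NKG2 receptors of natural killer cells. It read 4333, 712 and 1283 in *Chrm3*-/- tumors and 2131, 1070 and 1137 in WT tumors. The high value of *Chrm3*-/- replicate 1 and the low value of *Chrm3*-/- replicate 2 enclosed all 3 WT tumors. The log2 fold change was 0.21 (SE 0.63, adjusted p = 0.991), and the other probes gave 0.32 (SE 0.48) and 0.11 (SE 0.61).

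*H2-Q7* (chromosome 17, 35439140 to 35443773), one of the Qa-2 genes, read 1903, 202 and 384 in *Chrm3*-/- tumors and 923, 302 and 387 in WT tumors, for a log2 fold change of 0.17 (SE 0.77, adjusted p = 0.991). Among *Chrm3*-/- tumors it spread 9.41-fold, the most of the 4 heavy chains at their brightest probes, and among WT tumors 3.06-fold. Its dim second probe read 6.87 to 45.4 in *Chrm3*-/- tumors and 6.34 to 21.1 in WT tumors. *H2-Q6* and *H2-Q8* are near-identical neighbours of *H2-Q7* whose transcripts may bind its probes, so its values are uncertain as those of a single gene.

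*B2m* (chromosome 2, 122147687 to 122153082), which encodes the light chain, lies outside the H2 complex. It read 18913, 5284 and 7406 in *Chrm3*-/- tumors and 20158, 9866 and 7781 in WT tumors at one probe, and 16540, 5737 and 7610 in *Chrm3*-/- tumors and 18214, 8101 and 6698 in WT tumors at the other. Both probes showed the same picture, with the replicate 1 tumors of the genotypes close to each other at the top and *Chrm3*-/- replicate 2 at the bottom. The first probe had a log2 fold change of -0.35 (SE 0.53) and the other of -0.15 (SE 0.49), both with an adjusted p of 0.991.

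The transporter genes were also highest in replicate 1 of each genotype. *Tap1* (chromosome 17, 34187556 to 34197225) read 163, 2.98 and 28.4 in *Chrm3*-/- tumors and 138, 19.65 and 24.9 in WT tumors, and *Tap2* (chromosome 17, 34204479 to 34216321), the other part of the heterodimer, read 773.5, 98.6 and 280.5 in *Chrm3*-/- tumors and 534, 350.2 and 298 in WT tumors. In *Chrm3*-/- replicate 2 the single *Tap1* probe was close to background. *Tap1* gave a log2 fold change of -0.05 (SE 0.59, adjusted p = 0.996) and *Tap2* one of -0.34 (SE 0.59, adjusted p = 0.991). For low values such as those of *Tap1* the offset of 50 makes the fold change smaller, and *Tap1* gave -0.19 with an offset of 16 and -0.76 on a plain log2 scale with values under 2 set to 2.

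*Tapbp* (chromosome 17, 33919478 to 33929290) encodes tapasin, which tethers class I molecules to the transporter and edits their peptides. It read 313.5, 182.5 and 231.5 in *Chrm3*-/- tumors and 214, 171 and 186 in WT tumors. Replicate 1 was again the highest of each genotype, within a range of 1.72-fold in *Chrm3*-/- tumors and 1.25-fold in WT tumors. The log2 fold change was 0.26 (SE 0.22), with the lowest unadjusted p of all member probes, 0.268 (adjusted p = 0.991 from limma). At the second *Tapbp* probe the difference was 0.21 (SE 0.34).

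The general chaperones of the endoplasmic reticulum did not share this feature. *Calr* (chromosome 8, 84842088 to 84846931), calreticulin, read 686, 1025 and 1199 in *Chrm3*-/- tumors and 680.0, 824 and 1127 in WT tumors, with replicate 1 the lowest in each genotype. Its log2 fold change was 0.13 (SE 0.27, adjusted p = 0.991). *Pdia3* (chromosome 2, 121413902 to 121438687), which encodes ERp57, read 5317, 7424 and 5907 in *Chrm3*-/- tumors and 6626, 6929 and 7194 in WT tumors, with replicate 1 again the lowest in each genotype. Its log2 fold change of -0.17 had the smallest standard error of the members, 0.15 (95% interval -0.53 to 0.20, adjusted p = 0.991).

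**Figure D1:**
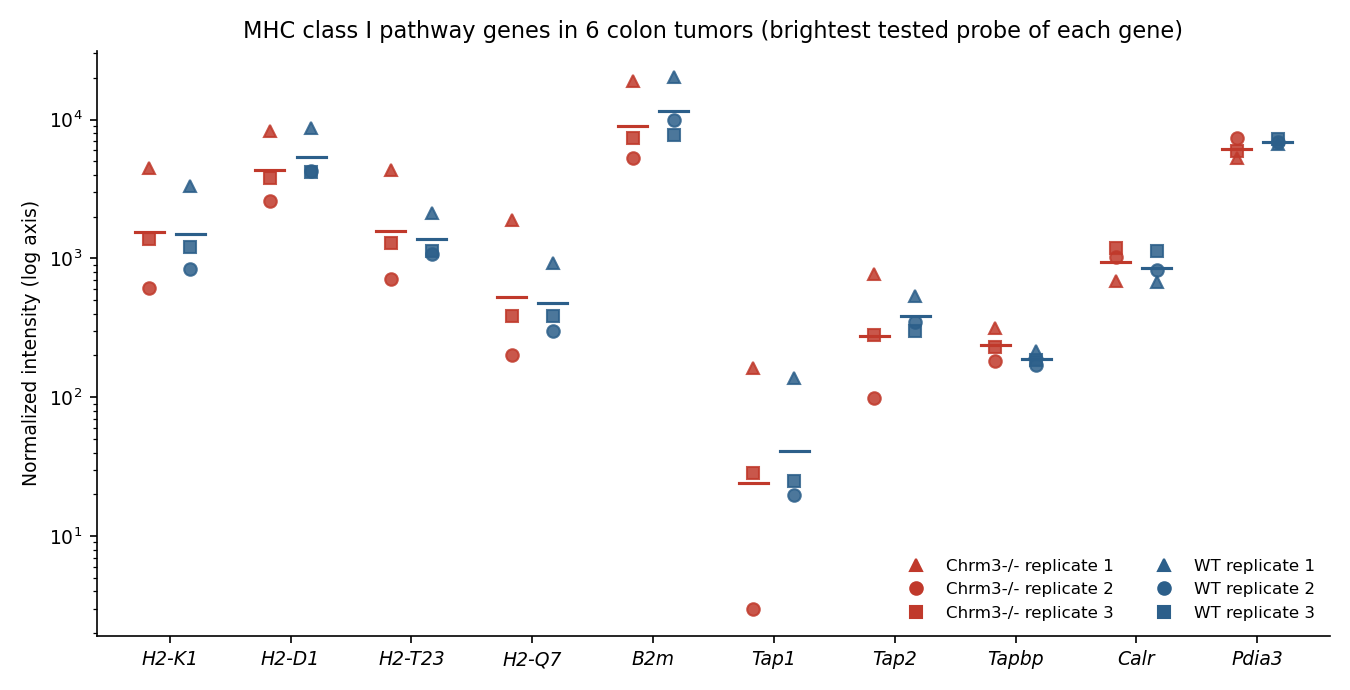
Normalized intensity (log axis) of the brightest tested probe of each of the 10 genes in the 3 *Chrm3*-/- tumors (red) and the 3 WT tumors (blue), 1 symbol per array, with the geometric mean of each genotype as a bar. The triangles, replicate 1, stand at the top of both genotypes from *H2-K1* to *Tapbp*, with 18913 and 20158 for *B2m*, but not for *Calr* and *Pdia3*. Levels of different genes come from different probes and cannot be set against each other.

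Between the genotypes no member probe differed beyond the spread of the tumors. None of the 19 tested probes had an adjusted p under 0.05 in limma, where 0.124% of all 22641 tested probes did (28), and none had an unadjusted p under 0.05, where 4.82% of all did. The adjusted p of the members was 0.991 to 0.996. Of the 19 probes 10 lay above and 9 below WT, with a median log2 fold change of 0.07 (range -0.45 to 0.32), against 0.01 over all probes tested. The 3 *Chrm3*-/- arrays overlapped the 3 WT arrays at each of the 19 probes, whereas 10.7% of all tested probes did not overlap. The median standard error of the member probes was 0.53, against 0.19 over all tested probes, so that a genotype difference had to be larger in these genes than at most probes to pass. With 3 tumors a genotype, a p that misses the threshold does not show that the levels were alike, and the interval of *H2-K1*, for example, allows a log2 difference of more than 1 either way.

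**Figure D2:**
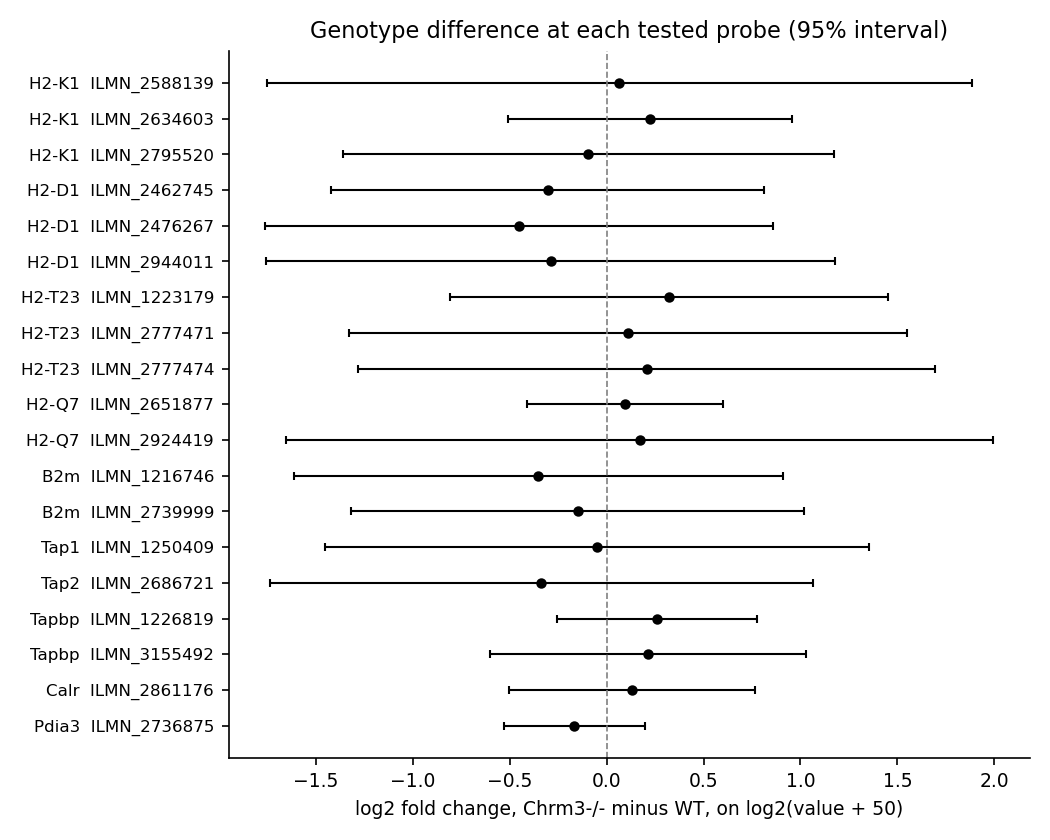
Log2 fold change (*Chrm3*-/- minus WT, on log2(value + 50)) of each of the 19 tested member probes, with its 95% interval from limma as a bar. All 19 intervals cross 0, and those of *Pdia3* (-0.53 to 0.20) and *Tapbp* are among the narrowest.

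The heavy chains, *B2m*, *Tap1*, *Tap2* and *Tapbp* shared their highest tumor within each genotype. Among the 8 genes other than *Calr* and *Pdia3*, 17 of 17 tested probes were highest in replicate 1 of each genotype, where 10.1% of all tested probes were. On the log2 scale, *Chrm3*-/- replicate 1 lay above the mean of the other *Chrm3*-/- tumors by a median of 1.63 (0.51 to 2.56) and WT replicate 1 above the other WT tumors by a median of 0.92 (0.21 to 1.67). The medians over all tested probes were -0.06 and -0.01. The step was over 1 in both genotypes at 8 of the 17 probes, against 0.292% of all tested probes. *Chrm3*-/- replicate 2 was the lowest of the 6 tumors at 15 of the 17 probes, where it was the lowest at 20.9% of all tested probes. The labels give no pairing of the mice by replicate number, and these counts were made after the values had been seen, so no test is attached to them. The whole profiles of *Chrm3*-/- tumors also differed more from each other, with correlations of 0.872 to 0.960 between arrays over tested probes, than those of WT tumors, with 0.973 to 0.980.

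The genotype values of these genes accordingly hung on single tumors. Without *Chrm3*-/- replicate 1 the median log2 fold change of the 19 probes was -0.59, with 2 probes above WT and a lowest adjusted p of 0.660 in limma, and 3 of the 19 had an unadjusted p under 0.05, as did 7.42% of all tested probes in that fit. Without *Chrm3*-/- replicate 2 it was 0.33 and without WT replicate 1 it was 0.28, with 17 and 15 probes above WT. With replicate 1 of both genotypes left out, a choice made after the values had been seen, it was -0.16. No member probe passed in any of these fits.

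The H2 genes are among the most variable between mouse strains, and the mixed background of these mice could carry different alleles in different animals. The heavy chains were therefore also read against *B2m*, *Tap1*, *Tap2* and *Tapbp* within each tumor, as the log2 value of an H2 probe minus the mean of those 4 genes. This difference varied less among tumors than the plain log2 values, with a median SD within *Chrm3*-/- tumors of 0.27 against 1.08 and within WT tumors of 0.24 against 0.53. Relative to the 4 genes, 8 of the 11 tested H2 probes lay higher in *Chrm3*-/- than in WT tumors, by a median of 0.21 (range -0.33 to 0.44). Without *Chrm3*-/- replicate 1 the direction turned, with 5 of the 11 higher and a median of -0.08. The reference genes themselves had log2 fold changes of -0.35 (*B2m*), -0.05 (*Tap1*), -0.34 (*Tap2*) and 0.26 (*Tapbp*). A reference that is lower in *Chrm3*-/- tumors raises any probe on this scale, so the count and median cannot be read as a trait of the H2 probes alone. With *B2m* alone as the reference the median was 0.45 (10 of 11 higher), and with *Tap1*, *Tap2* and *Tapbp* it was 0.14 (7 of 11). Over these 11 probes an exact permutation test, two-sided, of 3 against 3 tumors cannot give a p below 0.1, and that lowest p was reached at 3 probes (adjusted p = 0.367 over the 11). Read against the same 4 genes, 1.24% of all tested probes did not overlap between the genotypes, where each difference also carries the spread of the 4 genes, and on the plain scale the share was 10.7%.

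Of the 3 probes, 2 belonged to *H2-D1* and 1 to *H2-T23*, and the genes pointed opposite ways. The brightest *H2-D1* probe stood at 3.00, 3.06 and 3.00 above the reference genes in *Chrm3*-/- tumors and at 3.32, 3.12 and 3.18 in WT tumors, a difference of -0.19, and another *H2-D1* probe differed by -0.33. An *H2-T23* probe stood at 1.06, 0.98 and 0.75 in *Chrm3*-/- tumors and at 0.38, 0.54 and 0.55 in WT tumors, a difference of 0.44. The tumors did not overlap at these 3 probes, so leaving out arrays or adding the replicate block could not turn the sign of a difference. With other offsets, a plain log2 scale or other reference genes, the *H2-T23* difference kept its sign (0.36 to 0.67). The larger *H2-D1* difference kept its sign too, but was only -0.10 with *B2m* alone as the reference and -0.14 on a plain log2 scale. That of the brightest *H2-D1* probe turned to 0.05 with *B2m* alone as the reference and to 0.01 on a plain log2 scale. The remaining tested *H2-D1* probe differed by -0.17 with overlapping tumors (exact p = 0.5, permutation test). Its difference was 0.06 with *B2m* alone as the reference and 0.01 without WT replicate 1. The other *H2-T23* probes had differences of 0.23 and 0.33 with overlapping tumors (exact p = 0.3 each), *H2-K1* 0.02 to 0.34 and *H2-Q7* 0.21 and 0.29. *H2-Ea*, a class II gene that some mouse haplotypes do not express, read 1194 in WT replicate 2 and 1.32 to 1.79 on the other 5 arrays. Whether alleles that bind a probe differently have a part in these H2 differences was not tested.

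**Figure D3:**
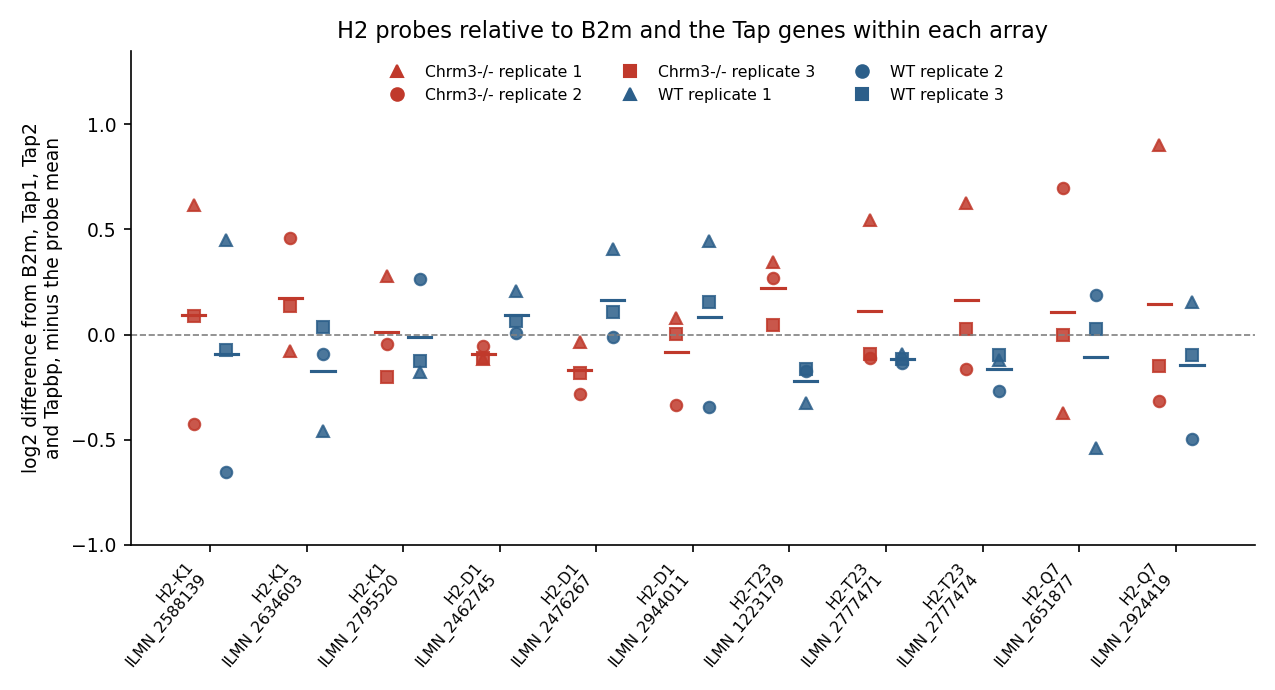
For each of the 11 tested H2 probes, the log2 value minus the mean of *B2m*, *Tap1*, *Tap2* and *Tapbp* in the same tumor, centred on the probe's mean over the 6 tumors, with *Chrm3*-/- tumors (red) left of WT tumors (blue) and the mean of each genotype as a bar. The tumors of the genotypes do not overlap at 3 probes, below WT at the *H2-D1* probes with -0.19 and -0.33 and above WT at the *H2-T23* probe with 0.44.

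Other genes tied to the pathway were taken from 4 lists of class I processing, heavy chains, regulation and recognition, with 79 symbols and 54 genes tested, and from 2 lists of interferon-induced and class II genes, with 36 symbols and 31 genes tested. None of these 85 genes passed an adjusted p of 0.05 in limma (lowest 0.826). An unadjusted p under 0.05 was reached by 3 of the 54, or 5.56%, and 0 of the 31, against 4.82% of all tested probes. The immunoproteasome subunits, which replace standard subunits when cells meet interferon and change the peptides that are cut, were likewise highest in replicate 1 of both genotypes. *Psmb8* read 1983, 294 and 547 in *Chrm3*-/- tumors and 1534, 779 and 648 in WT tumors (log2 fold change -0.38), *Psmb9* 1441, 108.5 and 269.5 in *Chrm3*-/- tumors and 1074, 246 and 397 in WT tumors (-0.33), and *Psmb10* 2623, 752 and 1288 in *Chrm3*-/- tumors and 1528, 1223 and 1201 in WT tumors (0.06). *Psme1* and *Psme2* encode the interferon-inducible activator of the proteasome. *Psme1*, at 3710, 2885 and 3425 in *Chrm3*-/- tumors and 4184, 3963 and 3345 in WT tumors, was highest in replicate 1 of both genotypes too, over a narrower range, whereas *Psme2* read 532, 536 and 428 in *Chrm3*-/- tumors and 524, 453.5 and 431 in WT tumors. The chaperone *Hsp90b1* ranged over 4210 to 5408 in *Chrm3*-/- tumors, against 5755 to 6071 in WT tumors (log2 fold change -0.33, adjusted p = 0.991 from limma). Its tumors thus did not overlap, as was so at 10.7% of all tested probes. *Hspa5* ranged over 47.2 to 173 in *Chrm3*-/- and 72.7 to 123 in WT tumors. *Erap1*, which trims peptides, was dim at 1.15 to 7.00 and 5.79 to 18.6, *Canx* was too dim to be tested, and *H2-L* had no probe here. Of the 17 tested genes of this list of processing and folding, 4 lay above and 13 below WT (median -0.16), and 6 were highest in replicate 1 of both genotypes.

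Further heavy chains and the regulators of the pathway varied among the tumors too. *H2-T10* read 943, 54.45 and 160.0 in *Chrm3*-/- tumors and 313, 159.5 and 142 in WT tumors, and *H2-M3*, which presents formylated peptides, 352.5, 42.9 and 99.2 in *Chrm3*-/- tumors and 172, 94.8 and 111 in WT tumors. Of the 13 tested genes of this list 5 were highest in replicate 1 of both genotypes, and the median log2 fold change was 0.05. The dim *H2-Q1* and *H2-Q2* were highest in *Chrm3*-/- replicate 1 but lowest among WT tumors in WT replicate 1, and *H2-Q10* and *H2-T22* were too dim to be tested. *Fcgrt*, an Fc receptor that also pairs with B2m, ranged over 609 to 1337 in *Chrm3*-/- tumors, against 732.5 to 1062 in WT tumors. *Nlrc5* read 129.5, 5.02 and 1.96 in *Chrm3*-/- tumors and 124, 12.2 and 4.14 in WT tumors, and *Irf1*, a factor induced by interferon, 4143, 1445 and 1926 in *Chrm3*-/- tumors and 2965, 2153 and 2375 in WT tumors. *Irf7* and *Ifngr1*, a chain of the interferon-gamma receptor, ranged over 24.2 to 274 and 294 to 962.5 in *Chrm3*-/- tumors, against 37.9 to 68.5 and 394.5 to 651 in WT tumors. The 16 tested regulators had a median of -0.01, and 6 were highest in replicate 1 of both genotypes.

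Most interferon-induced genes shared this highest tumor. Of 21 tested, 17 were highest in replicate 1 of both genotypes, replicate 1 of both lay more than 1 on the log2 scale above the other tumors for 9, and 5 genes lay above and 16 below WT (median -0.24). *Gbp2* read 1060, 77.8 and 371.5 in *Chrm3*-/- tumors and 803, 226 and 504.5 in WT tumors, and the chemokine *Cxcl9* 395, 31.0 and 65.8 in *Chrm3*-/- tumors and 1347, 72.8 and 33.3 in WT tumors. *Cxcl10* read 86.6, 2.09 and 11.7 in *Chrm3*-/- tumors and 123, 16.2 and 7.05 in WT tumors. Of the 10 class II genes, which present to CD4 T cells, 7 were highest in replicate 1 of both genotypes, among them *H2-Aa* with 7629, 2284 and 3445 in *Chrm3*-/- tumors and 4703, 3298 and 3996 in WT tumors and *Cd74*, the invariant chain, with 12823, 3406 and 4703 in *Chrm3*-/- tumors and 7864, 5854 and 5985 in WT tumors. The step of WT replicate 1 was smaller in class II genes, with a median of 0.36, than in interferon-induced genes, with 1.12, and this difference between lists was not tested.

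**Figure D4:**
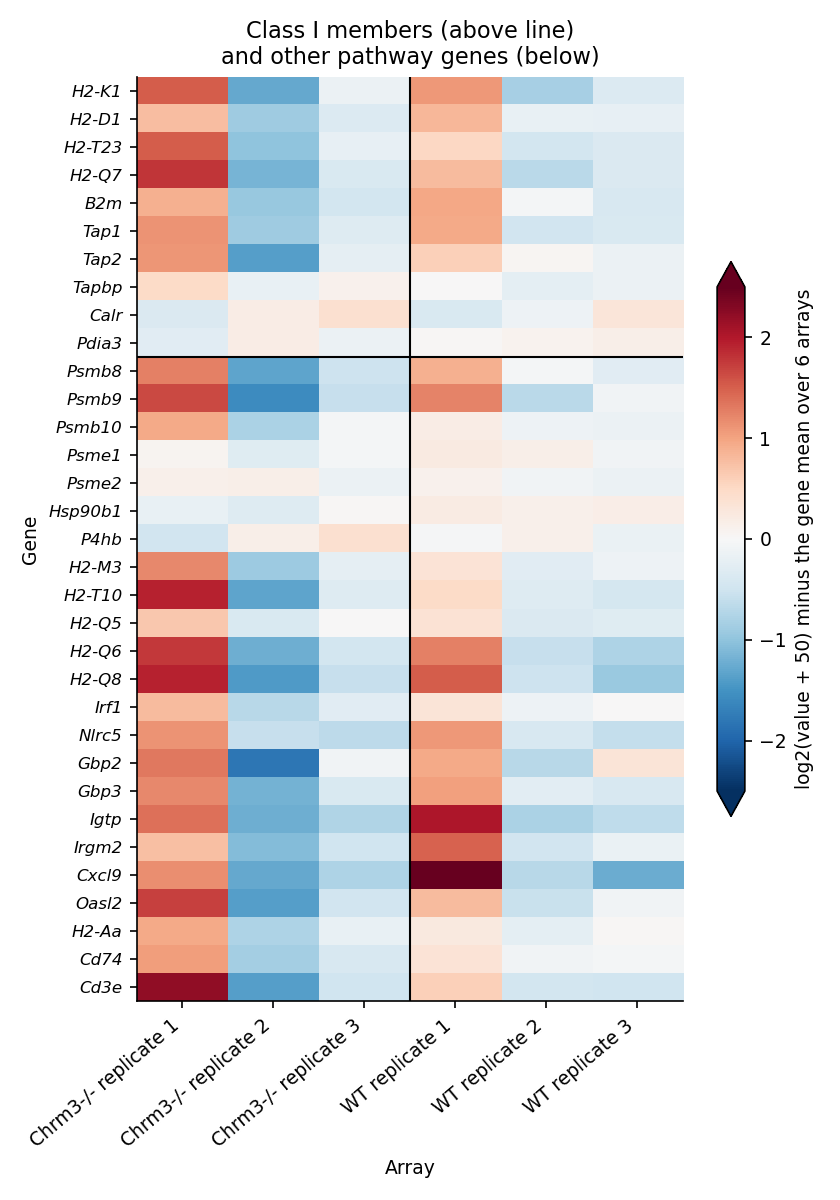
Log2(value + 50) minus the mean over the 6 arrays for the 10 class I genes (above the line, brightest tested probe) and for selected genes of the other lists (below the line), with the *Chrm3*-/- arrays left of the WT arrays and red for values above the mean. Some of the selected genes were added after their values had been seen, and *Ifitm3*, *Usp18* and *H2-Bl* are not among them. The rows therefore do not show how common the pattern of replicate 1 was in the lists. Replicate 1 of each genotype is red and *Chrm3*-/- replicate 2 is blue for the heavy chains, *B2m*, the transporter genes, *Psmb8* and *Psmb9*. *Calr*, *Pdia3* and *Psme2* vary over a narrower range, with *Calr* and *Pdia3* lowest in replicate 1 of each genotype.

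Markers of lymphocytes differed among the tumors as well. Of 11 markers of T and NK cells, 9 had a probe and 6 were tested, and the summed intensity of these 6 was 3467, 66.8 and 336 in *Chrm3*-/- tumors and 779, 281 and 278 in WT tumors, so that replicate 1 was highest in both genotypes, as it was for 5 of the 6 tested markers singly. *Cd3e*, a chain of the T cell receptor complex, read 783, 19.4 and 76.7 in *Chrm3*-/- tumors and 222, 80.7 and 77.1 in WT tumors, while *Cd8a*, *Ncr1* and *Gzmb* read under 2 on all arrays and *Cd8b1* was 1460 to 1775 in *Chrm3*-/- tumors, against 1787 to 2396 in WT tumors. The summed markers of B and plasma cells stood at 5234, 109 and 328 in *Chrm3*-/- tumors and 299, 1551 and 943 in WT tumors, those of macrophages and dendritic cells at 4331 to 12153 and 5849 to 8874, and those of epithelium at 36736 to 54056 and 36523 to 49743. *Krt8* and *Lgals4* made up most of each epithelial sum. *Cdx2* and *Krt20* were highest in *Chrm3*-/- replicate 1, at 2680 and 4821, against 56.5 to 383 and 536 to 2110 on the other 5 arrays. *Krt18* was lowest there, at 2364 against 3839 to 5260. Fibroblast markers summed to 10098, 9727 and 9185 in *Chrm3*-/- tumors and 16069, 12566 and 12435 in WT tumors, without overlap, as at 10.7% of all tested probes singly. *Dcn* made up most of each sum, at 7444 to 7520 in *Chrm3*-/- and 8764 to 12470 in WT tumors. An unadjusted p under 0.05 in limma was reached by 5 of the 7 fibroblast genes, against 4.82% of all tested probes, and none passed after adjustment (median log2 fold change -0.46). The tumors overlapped at *Lum*, and *Thy1* lay above WT (0.51). Neutrophil markers summed to 91.2, 532 and 756 in *Chrm3*-/- tumors and 2897, 803 and 1623 in WT tumors, with replicate 1 the highest WT but the lowest *Chrm3*-/- tumor. *S100a8* and *S100a9* made up most of each WT sum. *Retnlg* differed, at 64.9, 35.2 and 74.8 in *Chrm3*-/- tumors and 73.0, 174 and 153 in WT tumors. Its lowest WT tumor was thus replicate 1. Of the 5 tested neutrophil genes 2 had an unadjusted p under 0.05 in limma, and none passed after adjustment. Smooth muscle markers reached 36877 in *Chrm3*-/- replicate 1, against 7701 to 14723 on the other 5 arrays. Endothelial markers summed to 528 to 693 in *Chrm3*-/- tumors and 537 to 865 in WT tumors. In WT tumors the markers of B and plasma cells were lowest in replicate 1, unlike those of T and NK cells. In RNA of whole tumors fewer cells of a type cannot be told apart from less RNA per cell. The part of any of these cell types in the differences of the class I genes among tumors was not tested.

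**Figure D5:**
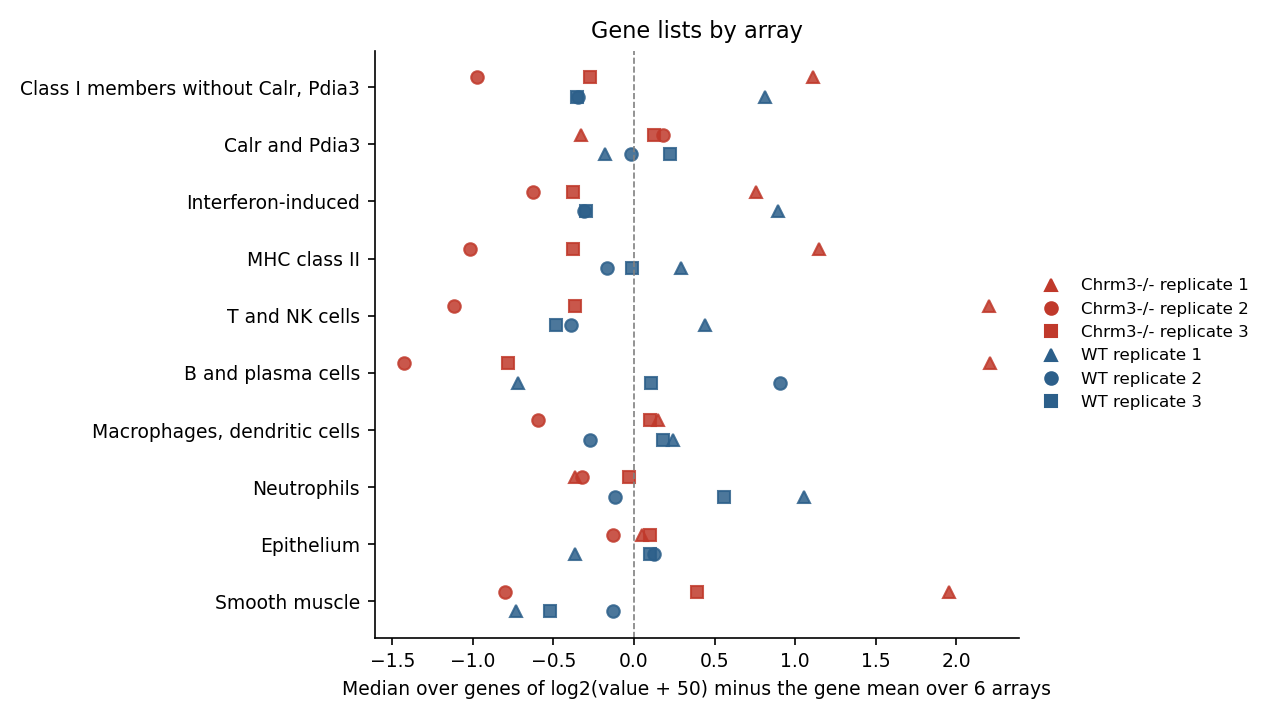
Median over the genes of each list shown of log2(value + 50) minus the gene's mean over the 6 arrays, 1 symbol per array, with *Chrm3*-/- (red) above WT (blue). The lists of fibroblasts, endothelium and other class I genes are not drawn. The fibroblast medians were -0.25, -0.22 and -0.22 in *Chrm3*-/- tumors and 0.43, 0.26 and 0.18 in WT tumors. The triangles of the 8 class I genes lie at 1.11 (*Chrm3*-/- replicate 1) and 0.81 (WT replicate 1), and those of *Calr* and *Pdia3* at -0.33 and -0.18.

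Across the array, the probes whose values were most like those of *B2m* included other interferon-inducible genes. Over the 6 tumors and 19220 named probes, the 5 highest Pearson correlations with *B2m* on the log2 scale were those of *Irgm1* (0.99), *H2-D1* (0.99), *Ube2l6* (0.99), *Gbp3* (0.99) and *Pigt* (0.98). Likeness was taken probe by probe, and the *Irgm1* probe named here read 125 to 706, while the brightest *Irgm1* probe varied little, from 4657 to 5408 in *Chrm3*-/- tumors and from 4245 to 6060 in WT tumors. *Irgm1* and *Gbp3* encode GTPases of defence against microbes inside cells, and *Ube2l6* a conjugating enzyme of ISG15. *Psmb8* ranked 14 and *Tap1* 42, whereas *Tapbp* ranked 2189 and *Calr* 18952, with a correlation of -0.88. For *H2-K1* the 5 highest were the dim probes of *Tnfsf8*, *Tnfsf11*, *Art3* and *Ost4* and that of *Nfkbia*, the inhibitor of NF-kB, with 0.99 or 1.00 each, and *Tap1* ranked 11, *H2-Q7* 18 and *Psmb9* 20. All these correlations share the same 6 arrays and are given as a description.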

How the data were processed

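RNA of 6 colon tumors was hybridised by the authors to the MouseWG-6 v2.2 BeadChip. The deposited values are intensities on a linear scale, normalized by the authors with cubic splines without background subtraction. The 6 arrays held the same sorted values within 0.001, and 46.1% of the probes on each array read under 2 in closely spaced steps, which were taken as not above background. The table of signals before normalization was left out, since its 6 columns could not be tied to samples by name. The number of arrays limits the precision.

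Intensities were analyzed as log2(value + 50). Probes whose mean on this scale reached the median of all were tested, 22641 of 45281, in R 4.3.3 with limma 3.58.1 (lmFit, then eBayes with trend). The model held genotype alone, and p-values were two-sided with Benjamini-Hochberg adjustment over all tested probes at 0.05. The script was tested on simulated data. Tables and exact permutation tests were made in Python 3.11.15 with pandas 2.3.3, numpy 2.4.6 and scipy 1.17.1, and plots with matplotlib 3.10.9.

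Gene names came from the platform annotation, which gives 34885 probes 1 symbol, 18 several and 10378 none, and all 10 genes were matched to the RefSeq gene table of GRCm38.p6. No probe sequence or coordinate was used. A gene outside the 10 is given by its brightest tested probe, except in the search for like probes. Named were all member probes, a fixed set of pathway genes, any list gene that passed, and the 5 probes most like *B2m* and *H2-K1*. *Chrm3*, *H2-Ea*, *H2-Q1*, *H2-Q2*, *Cd3e*, *Dcn*, *Lum*, *Thy1*, the H2-Q7 neighbours, the genes added to the heat map and those of the closing observations were named after their values had been seen. The same holds for the neutrophil and epithelial markers named singly. The members and lists were chosen with earlier results of these data known. Alternatives were other offsets, filters and variance models, array weights, the replicate number as a block, the methods' test, other reference genes for the H2 comparison, and leaving out each array. The labels name separate samples, and the methods give 1 mouse for each array.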

Additional observations from a re-analysis of the deposited data

How the results depend on the processing

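The count of 0 member probes and 0 other pathway genes at an adjusted p of 0.05 was also 0 in each alternative fit. The count over all tested probes, 28, was 45 on a plain log2 scale, 12 without a filter on dim probes, 252 with arrayWeights, 9 with the methods' test after adjustment, and 4 to 43 with each array left out in turn (4 without WT replicate 3, 43 without *Chrm3*-/- replicate 1). The fold changes of the members were less steady. With each array left out, the log2 fold changes ranged over -0.67 to 0.72 for *H2-K1*, -0.77 to 0.07 for *H2-D1*, -0.50 to 0.76 for *H2-T23*, -0.68 to 0.79 for *H2-Q7*, -0.88 to 0.05 for *B2m*, -0.63 to 0.41 for *Tap1*, -0.97 to 0.27 for *Tap2* and -0.03 to 0.35 for *Calr*, while *Tapbp* (0.09 to 0.42) and *Pdia3* (-0.30 to -0.06) kept their sign. With arrayWeights, which gave *Chrm3*-/- replicate 3 a weight of 6.12 against 0.256 and 0.386 for the other *Chrm3*-/- arrays, the values were -0.05 for *H2-K1*, -0.04 for *H2-T23* and -0.20 for *H2-Q7*. Without both replicate 1 arrays, an alternative chosen after seeing the data, they were -0.12, -0.19 and -0.24. The median difference of the H2 probes relative to *B2m*, *Tap1*, *Tap2* and *Tapbp*, 0.21, ranged over -0.08 (without *Chrm3*-/- replicate 1) to 0.27 with each array left out, and was 0.14 to 0.45 with other offsets or reference genes. The causes of these shifts were not tested.

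The replicate numbers carry no pairing in the labels. Over all tested probes, deviations from the genotype means correlated at -0.15, -0.03 and 0.02 for replicates 1, 2 and 3. Such array-wide values cannot tell whether arrays of the same number shared some handling. The fit with a replicate block called 1 probe over all and 0 member probes. In the H2 comparison the median under the replicate block was 0.21, and the lowest exact p it allows is 0.25.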

Other observations

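Some genes tied to antigen presentation differed in 1 genotype's first tumor only or ran against the class I genes. They were picked after their values had been seen. *H2-Oa* and *H2-Ob*, the chains of a class II regulator made mostly by B cells, read 762 and 790.0 in *Chrm3*-/- replicate 1, and 1.94 to 33.8 and 5.97 to 16.4 in the other *Chrm3*-/- tumors, against 37.2 to 67.8 and 13.9 to 118 in WT tumors. The nonclassical heavy chain gene *H2-Bl* read 632, 14.4 and 122 in *Chrm3*-/- tumors and 49.5, 137 and 162 in WT tumors, so that WT replicate 1 was its lowest WT tumor, unlike for the 8 class I genes. *Ifitm3*, an interferon-induced inhibitor of virus entry, read 4302, 17170 and 15076 in *Chrm3*-/- tumors and 22214, 16980 and 14290 in WT tumors, and *Usp18*, which removes ISG15, 418.5, 1281 and 439 in *Chrm3*-/- tumors and 1804, 854 and 781 in WT tumors. For both, replicate 1 was the highest WT tumor and the lowest *Chrm3*-/- tumor. None of these genes passed in limma (adjusted p = 0.991 for each).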
